A study of Mus musculus with 6 samples.

Results

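Gm12840 (ENSMUSG00000086320) and Gm26809 (ENSMUSG00000097815) are 2 long intergenic noncoding RNAs, genes that stand apart from protein-coding genes and whose long transcripts have no annotated protein. They were chosen by their p-values in the comparison of DKK1 with control, as the first and second lincRNAs among those with higher counts after DKK1, so their own difference in it is given below as a description, with no test. They are 2 of the 45706 genes in the table, 2 of its 3179 lincRNA genes, and 2 of the 217 lincRNA genes whose counts passed the filter for testing. The study measured total RNA by sequencing in wild-type mouse primary lung fibroblasts. The lungs were digested with collagenase and trypsin, and the outgrowing cells were cultured for 7 days and then purified. The 3 control libraries were labelled control with no agent named, and the 3 DKK1 libraries came from cells exposed for 24 hours to recombinant mouse DKK1, at 30 ng/ml. The labels give neither the strain, age or sex of the mice nor whether the replicates were separate cultures, so p-values measure only the spread between these samples, which may be technical.

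DKK1 is a secreted inhibitor of Wnt signalling that binds the LRP5 and LRP6 co-receptors at the cell surface, and it is also known as a circulating factor released by platelets and other cells. Fibroblasts are the matrix-producing cells of the lung and answer inflammatory stimuli by secreting cytokines and chemokines. Long noncoding RNAs are transcribed and often spliced like messenger RNAs. Some, such as Neat1 and Malat1, are well studied nuclear RNAs, while the 2 described here carry only provisional gene names.

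In the GENCODE M21 annotation of the mouse assembly GRCm38, Gm12840 lies on the plus strand at chr4:117700188-117700923 and spans 736 bp. Its single annotated transcript has 627 bases in 2 exons of 117 and 510 bp, separated by an intron of 109 bp, and no annotated gene overlaps it. Gm26809 lies on the plus strand at chr6:18844220-18847360 and spans 3141 bp. Its single transcript has 2981 bases in 3 exons of 179, 894 and 1908 bp, with introns of 61 and 99 bp. It overlaps Gm20186, a lincRNA on the minus strand at chr6:18845910-18848207. Both members have the weakest transcript support level that GENCODE gives, level 5. The GC content was 47.5% in Gm12840 and 48.9% in Gm26809, inside the middle range of 42.3% to 49.7% (the quartiles) over 4997 lincRNA transcripts. The length of Gm12840 was below the median lincRNA length of 768 bases and that of Gm26809 above the upper quartile of 1500 bases. The longest open reading frame had 51 codons in Gm12840 and 78 codons in Gm26809.

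The 2 transcripts come from different chromosomes but share sequence on opposite strands. All 627 bases of Gm12840 aligned to the reverse complement of Gm26809, in 2 blocks that meet at the Gm12840 exon junction. Bases 1 to 119 of Gm12840 matched Gm26809 bases 2362 to 2244 with 1 substitution, an identity of 99.2%. Bases 116 to 627 matched Gm26809 bases 2130 to 1619 with 13 substitutions and 1 base present only on each side, an identity of 97.1% over 513 aligned positions. In all, 15 bases of Gm12840 differed from the aligned Gm26809 strand. The first 300 bases of Gm12840 are shown because they hold exon 1, the junction and the first 183 bases of exon 2, followed by the Gm26809 strand that faces exon 1, at chr6:18846623-18846741 and read from the minus strand. Capitals mark the bases that differ between the aligned strands, 3 of them in the Gm12840 stretch.
Gm12840 bases 1 to 300: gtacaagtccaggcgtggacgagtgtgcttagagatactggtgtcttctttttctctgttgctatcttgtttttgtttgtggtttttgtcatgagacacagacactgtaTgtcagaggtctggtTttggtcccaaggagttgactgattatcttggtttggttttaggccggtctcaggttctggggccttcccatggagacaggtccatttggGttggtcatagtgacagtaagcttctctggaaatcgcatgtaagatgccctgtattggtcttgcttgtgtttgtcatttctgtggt
Gm26809 opposite strand, facing exon 1: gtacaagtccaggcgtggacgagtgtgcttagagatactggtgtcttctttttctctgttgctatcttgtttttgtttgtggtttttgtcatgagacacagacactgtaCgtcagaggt

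Bases 116 to 119 of Gm12840 aligned in both blocks, so the blocks were cut at its exon junction. The ends of the stretch below thus also lie in the aligned blocks. Between the blocks cut in this way Gm26809 holds 117 bases that the spliced Gm12840 transcript lacks, at chr6:18846508-18846624. They are shown, read from the minus strand, because they lie exactly where the Gm12840 transcript has its exon junction, whose own intron has 109 bp. The capitals mark the first and last 2 bases, GT and AG, the letters with which most introns begin and end.
Gm26809 opposite strand, facing the Gm12840 junction: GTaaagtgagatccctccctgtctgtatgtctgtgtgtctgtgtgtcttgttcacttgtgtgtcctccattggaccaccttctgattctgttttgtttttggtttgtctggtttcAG

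Gm20186, which reads from the same strand as these stretches, aligned to Gm12840 in the same orientation over 628 positions with an identity of 97.5%. Gm20186 transcripts were identical to the reverse complement of Gm26809 over up to 600 bases without a break. A search of 141767 annotated transcripts, keeping alignments of at least 50 bases and 90% identity, found 3 more relatives, all of them aligned to Gm26809 and 1 of them, AC160336.1, also to Gm12840. AC160336.1 on chromosome 14 was not analysed here. Olfr1033, an olfactory receptor gene on chromosome 2, reached at most 7 counts in a library, and Gm29408 on chromosome 9 reached at most 1 count. The relatives were chosen after the sequences had been compared.

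**Figure D1:**
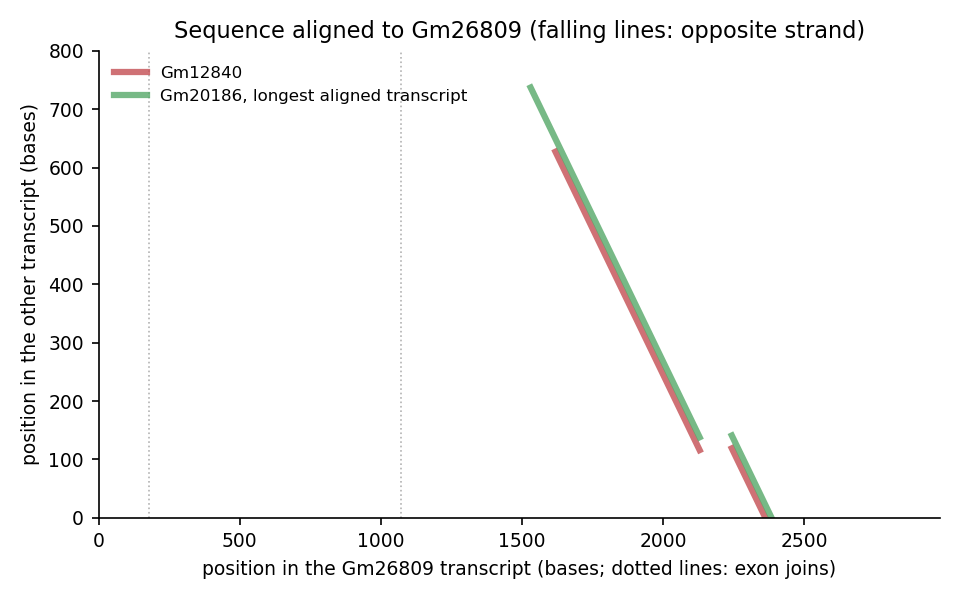
The horizontal axis is the position in the Gm26809 transcript in bases and the vertical axis the position in Gm12840 (red) or in the longest aligned Gm20186 transcript (green), with dotted lines at the exon joins of Gm26809. Both relatives fall from left to right, that is, they match the opposite strand. Both leave the same gap facing the Gm12840 exon junction, 117 bases when the aligned blocks are cut at that junction.

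The replicate 3 library of each group stood apart by its markers of other cell types. Summed epithelial markers were 57.1, 60.6 and 150 CPM (counts scaled to the same total in each library) in control replicates 1, 2 and 3 and 58.3, 51.7 and 149 CPM with DKK1. Endothelial markers summed to 26.0, 23.8 and 64.4 CPM in control and 29.3, 21.7 and 63.0 CPM with DKK1, and mesothelial markers to 10.9, 9.73 and 28.1 CPM and 10.4, 10.6 and 31.6 CPM. With both of these libraries left out, an alternative added after seeing the data, the log2 fold change (DKK1 over control) was 1.11 for Gm12840 and 1.09 for Gm26809, where all 6 libraries gave 1.12 and 1.04.

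Gm12840 had 210, 281 and 227.55 counts in control replicates 1, 2 and 3 and 653, 664 and 508 counts in DKK1 replicates 1, 2 and 3. In CPM these are 9.31, 9.94 and 10.0 in the controls and 22.8, 19.1 and 22.0 after DKK1. The lowest DKK1 library, replicate 2, was well above the highest control, and the controls lay close together. The means were 9.76 ± 0.400 CPM (SD, n = 3) in control and 21.3 ± 1.93 CPM (SD, n = 3) with DKK1. The log2 fold change fitted by edgeR was 1.12 with a standard error of 0.08, a fold of 2.17. Within replicate numbers the CPM was 2.45, 1.92 and 2.19 times as high with DKK1. No count of 3 or fewer was involved, a floor that corresponds to 0.0864 to 0.133 CPM in these libraries.

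Gm26809 had 1189.49, 1209.60 and 1157.72 counts in the controls and 3152.94, 3272.63 and 2272.83 with DKK1, in the same order of replicates. These are 52.7, 42.8 and 51.1 CPM in control and 110, 94.2 and 98.6 CPM with DKK1. Replicate 2 was the lowest library of each group, and the groups did not overlap. The means were 48.9 ± 5.33 CPM (SD, n = 3) and 101 ± 8.15 CPM (SD, n = 3). The log2 fold change was 1.04 with a standard error of 0.08, a fold of 2.06, and the ratios within replicate numbers were 2.09, 2.20 and 1.93. Of all genes tested, 9.4% had every DKK1 library above every control library; both lincRNAs did, but the rule chose them on this contrast. In bulk RNA, fewer cells of a type and less RNA per cell cannot be told apart.

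**Figure D2:**
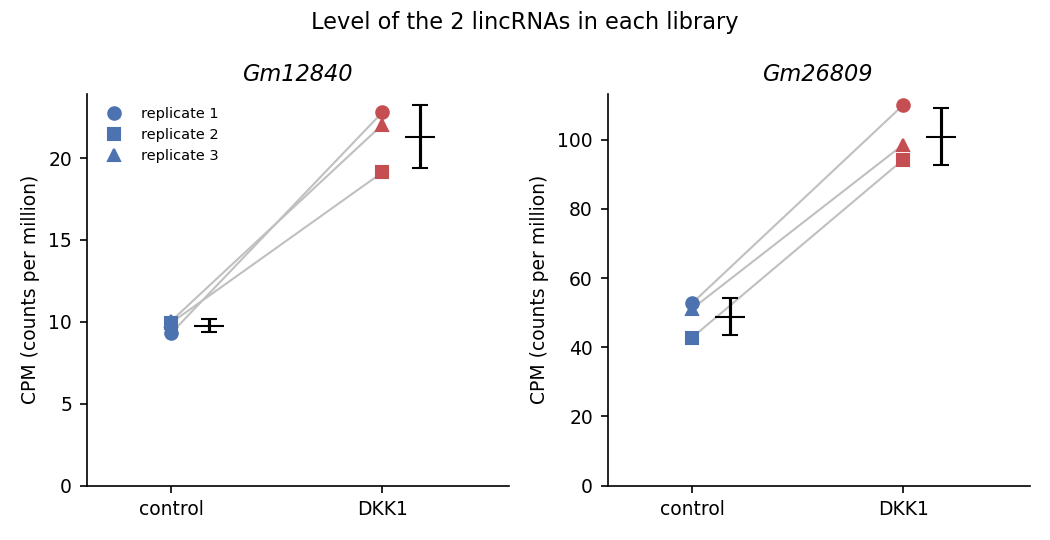
CPM of Gm12840 and Gm26809 in each library, with control in blue and DKK1 in red, replicate numbers by symbol and joined by grey lines, and the mean and SD (n = 3) as the black bar beside each group. Every DKK1 library is above every control library for both genes, from 19.1 against at most 10.0 CPM for Gm12840 and from 94.2 against at most 52.7 CPM for Gm26809.

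Per transcript length the 2 lincRNAs were at nearly the same level. In TPM, counts divided by length and scaled to the same total in each library, Gm12840 was at 56.3 ± 2.12 in control and 122 ± 11.4 with DKK1 (SD, n = 3 each). Gm26809 was at 59.2 ± 6.36 TPM in control and 122 ± 10.7 TPM with DKK1 (SD, n = 3 each). The ratio of Gm26809 to Gm12840 in TPM was 1.19, 0.905 and 1.07 in the controls and 1.02, 1.04 and 0.941 with DKK1. The ratio lay on both sides of 1 in each group, so by this measure the order of the 2 levels did not exceed their spread. The length used was that of all exons, with no allowance for fragment size, which weighs more on the shorter Gm12840. The Gm26809 counts also depend on the division of reads with Gm20186, described below. By mean TPM over the 6 libraries Gm26809 ranked 5th and Gm12840 6th of the 217 tested lincRNAs. They stood above 86.3% and 86.1% of all tested genes by the same measure.

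The deposited counts carry a trace of how reads were assigned at the chromosome 6 locus. RSEM, the counting program, divides a read that fits several transcripts among them, so a gene that shares reads has fractional counts. Gm26809 had fractional counts in 6 of 6 libraries, and Gm12840 in 1 library, control replicate 3. The counts of Gm26809 and Gm20186 added up to a whole number, within 0.02 counts, in 5 of 6 libraries, and the sum of Gm12840, Gm26809 and Gm20186 did so in 6 of 6. In control replicate 3 the pair summed to 1678.44 and the 3 genes to 1905.99. The fractional parts thus cancelled out between genes annotated on opposite strands, so some reads were divided between the strands here. The counts of these genes are therefore not values of 1 strand alone. The strand setting of the counting is not given in the sources used here, and how many reads were divided in this way was not tested.

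Gm20186 had 700.51, 690.40 and 520.72 counts in control and 767.06, 722.37 and 438.17 with DKK1. That is 26.2 ± 4.30 CPM against 22.2 ± 4.06 CPM (SD, n = 3 each), with overlapping groups. Its log2 fold change was -0.24 (SE 0.15), with an adjusted p of 0.648 by edgeR's quasi-likelihood test with Benjamini-Hochberg adjustment. With the replicate number as a block it was -0.24 (SE 0.05) and the adjusted p of the same test was 0.00562. Of the counts given to the pair, Gm26809 took 62.9%, 63.7% and 69.0% in the controls and 80.4%, 81.9% and 83.8% with DKK1. What part of these shares comes from the division of shared reads was not tested.

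Added together, Gm26809 and Gm20186 had 75.0 ± 8.31 CPM in control and 123 ± 11.9 CPM with DKK1 (SD, n = 3 each). The log2 fold change of that sum was 0.71 (SE 0.09), a fold of 1.64 where Gm26809 alone had 2.06. The sum of all 3 genes was 84.8 ± 7.97 CPM against 144 ± 13.4 CPM (SD, n = 3 each), that is, 0.76 on the log2 scale (SE 0.08) or a fold of 1.70. For these sums, too, every DKK1 library was above every control. No read length was given, so the shared sequence is given as exact windows of the transcripts. At 50 bases, 265 of 578 Gm12840 windows (45.8%) were also in Gm20186, and the same 265 in the reverse complement of Gm26809. At 100 bases 75 of 528 Gm12840 windows (14.2%) were shared, and at 150 bases 0 of 478. For Gm26809 the shared windows were 29.2%, 26.2% and 24.9% at 50, 100 and 150 bases, nearly all with the opposite strand of Gm20186.

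**Figure D3:**
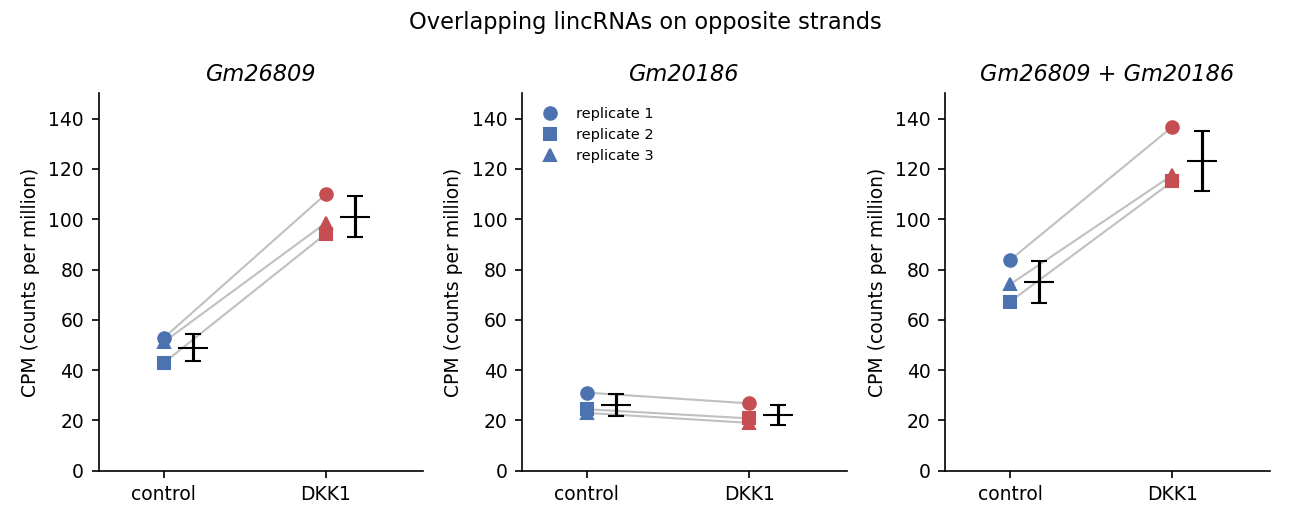
CPM of Gm26809, of Gm20186 and of the sum of both in each library (control blue, DKK1 red, replicates by symbol, mean and SD of n = 3 as the black bar). Gm26809 and the sum are higher in every DKK1 library, while the means of Gm20186 are 26.2 CPM in control and 22.2 CPM with DKK1 and its groups overlap.

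Among the other tested lincRNAs few were called. Over all genes 131 of 14635 (0.895%) were called at an adjusted p under 0.05, 102 higher and 29 lower. Apart from the 2 members, 1 of 215 tested lincRNAs was called (0.465%). This was Neat1, the RNA scaffold of nuclear paraspeckles, which fell from 82.8 ± 3.18 to 64.9 ± 0.877 CPM (SD, n = 3 each). Its log2 fold change was -0.36 (SE 0.04) with an adjusted p of 0.0076 by edgeR's quasi-likelihood test, and it was lower in 3 of 3 DKK1 libraries than in any control, as were 7.14% of all tested genes. Without DKK1 replicate 1 Neat1 was not called. Log2 fold changes were negative for 142 of the 215 and positive for 73, with a median of -0.10 where the median of all tested genes was -0.001. With the replicate block 14 of the 215 were called (6.51%), 5 higher and 9 lower, where 9.42% of all genes were called, 4.96% higher and 4.46% lower.

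The lincRNA ranked just below the members, Gm15675, had 19.05, 19.62 and 10.56 counts in control and 47.26, 61.31 and 33.27 with DKK1. This is 0.668 ± 0.190 against 1.62 ± 0.163 CPM (SD, n = 3 each). The log2 fold change was 1.24, at a level far below both members, and all 6 of its values were fractional. The next, Gm26883, had 11.96 ± 1.51 CPM in control and 16.5 ± 2.01 CPM with DKK1. Its log2 fold change, 0.46, was well below those of the members. It was above the controls in every DKK1 library and was also fractional in all 6.

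**Figure D4:**
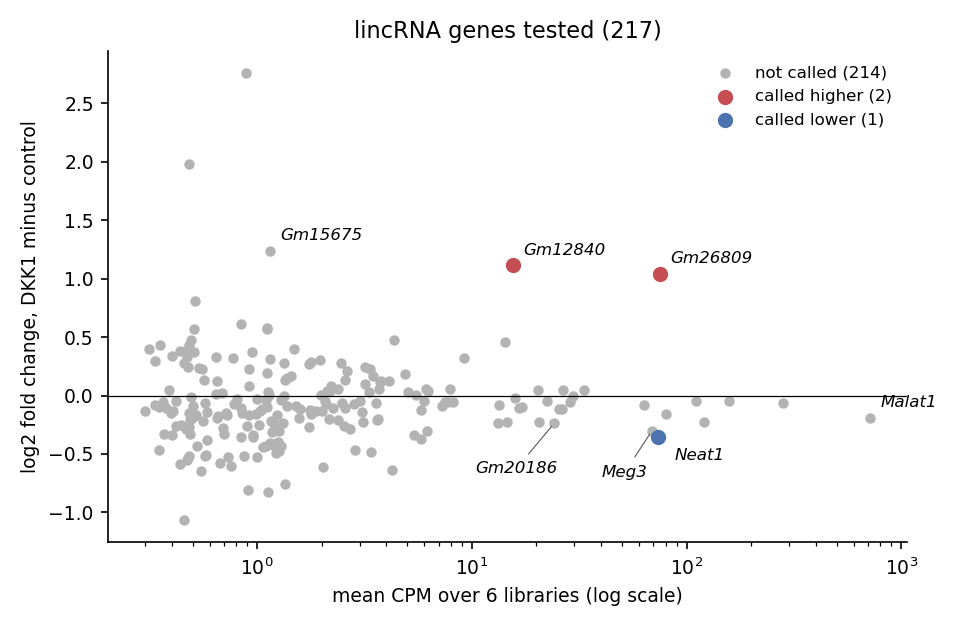
Log2 fold change (DKK1 minus control) against mean CPM over 6 libraries (log axis) for the 217 tested lincRNAs, called ones in red (higher) and blue (lower). Gm12840 and Gm26809 stand at log2 fold changes of 1.12 and 1.04 at CPM levels where the other lincRNAs lie closer to 0, and Gm15675 at 1.24 lies among the low-count genes. The highest log2 fold change among the lincRNAs other than the members was 2.76, in a gene that was not called.

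Of a list of 46 better known long noncoding RNAs 35 were tested. Their log2 fold changes ran from -0.65 for Jpx to 0.32 for Trp53cor1, named as the extremes after their values were seen, 25 were negative, and the median was -0.08. Only Neat1 was called (2.86% of the 35 tested, against 0.895% of all genes). The most abundant ones not called were Malat1, a nuclear speckle RNA (763 ± 80.3 against 671 ± 96.8 CPM), Gas5, a snoRNA host (139 ± 5.99 against 144 ± 3.91 CPM), and Rian, an imprinted RNA of the Dlk1-Dio3 region (88.6 ± 14.7 against 79.1 ± 15.4 CPM). With the replicate block 5 of the 35 (14.3%) were called, all lower, where 4.46% of all genes were called lower. These were Neat1, Meg3, Dnm3os, Malat1 and Rian, with adjusted p-values by edgeR from 1.0e-05 for Neat1 to 0.00645 for Rian.

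Of 16 long noncoding RNAs known to respond to inflammatory stimuli, 11 were tested and Neat1 alone was called, lower (9.09% of the 11, against 0.895% of all genes). The list shares Neat1, Malat1, Gas5, Mir22hg, Snhg15 and Mir17hg with the list above, so the Neat1 call is the same one. Of the better known RNAs outside this list, 0 of 29 tested were called, and 3 with the replicate block (10.3%, against 9.42% of all genes). U90926, which GENCODE labels protein coding, had 1.47 ± 0.555 CPM in control and 2.93 ± 0.822 CPM with DKK1, a difference of 0.99 on the log2 scale (SE 0.32). Ptgs2os2, a lincRNA that neighbours the cyclooxygenase gene Ptgs2, had 3.63 ± 0.844 CPM and 5.08 ± 1.14 CPM, a difference of 0.47 (SE 0.22). By edgeR their adjusted p-values were 0.281 and 0.520, and with the replicate block 0.00364 and 0.0269. With the block 4 of the 11 were called (36.4%, against 9.42% of all genes), these 2 higher and Neat1 and Malat1 lower.

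Of a list of 36 cytokine, chemokine and NF-kB response genes, chosen with results of these data known, 32 were tested and 14 were called, all higher (43.8%, against 0.697% of all genes called higher). The median log2 fold change was 0.61. Il6 had a log2 fold change of 1.37 (SE 0.09), C3, the central complement component, 1.83 (SE 0.13), and the neutrophil chemokine Cxcl5 2.27 (SE 0.16), each with an adjusted p of 0.00154 by edgeR. Ccl7 had 1.30, Cxcl1 1.82, Steap4 2.26, Lif 0.64 and Cxcl3 2.41. The most abundant not called without the block, Vcam1, Cebpb and Nfkb1, had log2 fold changes of 0.36, 0.39 and 0.20. With the replicate block 23 of the 32 were called, all higher (71.9%, where 4.96% of all genes were called higher).

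By edgeR without the replicate block no called gene lay within 500 kb of either member. Within 500 kb of the start of Gm12840 14 of 30 annotated genes were tested, and within 500 kb of Gm26809 3 of 16. Of these 17, 0 were called by edgeR's quasi-likelihood test, 3 had an unadjusted p under 0.05 (10.6% of all genes did), and DESeq2 called 1, Slc6a9 (it called 2.04% of all genes). The nearest upstream gene of Gm12840, Dmap1, a subunit of chromatin-modifying complexes 17.9 kb away, had a log2 fold change of 0.07 (SE 0.07). On the other side lie Gm12845, not analysed here, and the pseudogene Gm12844, which had at most 17.42 counts. Nearest to Gm26809 lie the pseudogene Gm5874, with at most 2.02 counts, the overlapping Gm20186 described above, and Lsm8. Lsm8, a subunit of a ring that binds a spliceosomal RNA, starts 4.36 kb downstream and had a log2 fold change of 0.05 (SE 0.08).

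With the replicate block 3 neighbours were called lower (4.46% of all genes were): Gm20186, above, and 2 genes near Gm12840. Slc6a9, a glycine transporter 134 kb away, was at 19.1 ± 0.996 CPM in control and 14.4 ± 1.57 CPM with DKK1 (SD, n = 3 each). Its adjusted p by edgeR was 0.0803, and 0.000981 with the block. B4galt2, a galactosyltransferase 183 kb away, was at 60.0 ± 2.60 against 54.1 ± 1.66 CPM, with adjusted p-values of 0.255 and 0.0129. Both were lower in 3 of 3 DKK1 libraries than in any control, as were 7.14% of all genes. So was Cttnbp2, 329 kb from Gm26809, at 1.06 ± 0.236 against 0.720 ± 0.125 CPM, with an adjusted p by edgeR of 0.535, and 0.307 with the block. In the opposite direction, Artn, a neurotrophic growth factor gene 230 kb away, had 1.54 ± 0.154 against 2.32 ± 0.363 CPM, 0.59 higher on the log2 scale (SE 0.20), and was called by neither fit (adjusted p 0.311, and 0.0778 with the block).

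**Figure D5:**
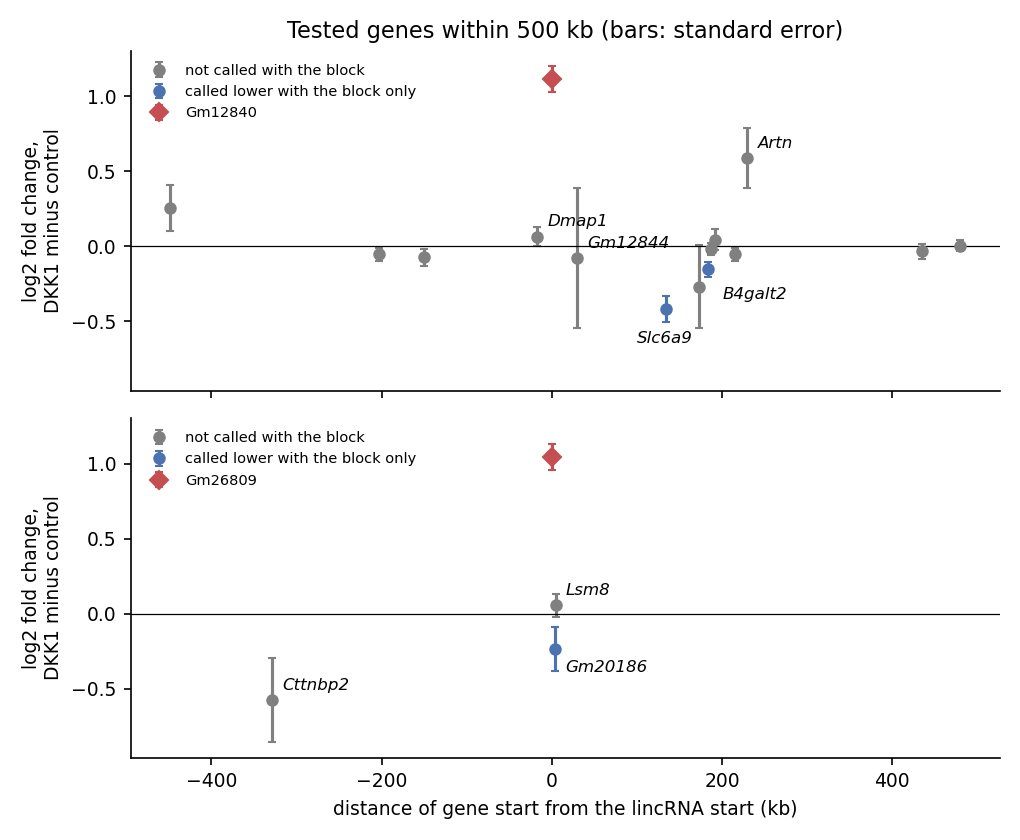
Log2 fold change (DKK1 minus control, bars are standard errors) of the tested genes within 500 kb, against the distance of their start from that of Gm12840 (upper) and Gm26809 (lower) in kb. The members (red diamonds) are at 1.12 and 1.04, the highest neighbour, Artn, is at 0.59, Dmap1, nearest to Gm12840, is at 0.07, and beside Gm26809 Gm20186 is at -0.24 and Lsm8 at 0.05.

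The genes whose levels followed the members most closely were ranked by Pearson's r of log2 CPM over the 6 libraries, among 13019 genes averaging 1 CPM or more. This measure holds the difference between the groups, which the rule used, and is a description. For Gm12840 the closest 5 were Cd14, a lipopolysaccharide co-receptor (r = 0.998), Tm4sf1 (0.994), Stom, the membrane protein stomatin (0.992), Odc1, the rate-limiting enzyme of polyamine synthesis (0.991), and Zfp472 (0.989). For Gm26809 they were the T-box factor Tbx3 (0.999), the immediate early gene Ier3 (0.997), Pi15 (0.995), the RNA-binding protein gene Mex3b (0.994) and Esd (0.994). All but Zfp472 and Mex3b were called higher, where 0.697% of all genes were, but the genes were picked for following members chosen on this contrast. Of these, Tbx3 and Esd were called in 0 of the 6 fits that left out 1 sample, Tm4sf1 in 3 and Stom in 5. Cd14 is also a marker of monocytes and macrophages. Cd14 went from 9.31 ± 0.222 to 16.8 ± 1.18 CPM and Ier3 from 98.3 ± 5.63 to 153 ± 11.1 CPM (SD, n = 3 each).

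The 2 members followed each other with r = 0.975 by this measure, where 40 genes stood closer to Gm12840 and 36 closer to Gm26809. After the mean of each group was removed, r between the members was 0.24, at ranks 4201 and 4635 of the 13019 genes. In control the highest library was replicate 3 for Gm12840 and replicate 1 for Gm26809, and with DKK1 replicate 1 was the highest for both. By these deviations the genes closest to Gm12840 were Zc3h13, Rps6ka5, Mycbp, Zfpl1 and Lsm7, and those closest to Gm26809 Paqr3, Shroom2, Slc9a9, Shpk and Trim27. None of these 10 was among the 10 named by the first measure, and none was called. Each r rests on 6 libraries that share their groups, and values near 1 are found among so many genes.

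The libraries held 22565917 to 34727102 counts. Fibroblast markers summed to 13392 to 15091 CPM in control and 12617 to 14288 CPM with DKK1, and 10 of 10 were detected in both groups. By edgeR 0 of the 10 were called, with 3 at an unadjusted p under 0.05, and DESeq2 called Dcn. With the replicate block 7 were called, Pdgfra and Dcn higher and Col1a1, Col1a2, Pdgfrb, Thy1 and Vim lower, where 4.96% of all genes were called higher and 4.46% lower with the block. Smooth muscle markers summed to 8971 to 10031 CPM in control and 7676 to 8966 CPM with DKK1, with 5 of 5 lower on average. Myh11, smooth muscle myosin, was called lower (336 ± 1.99 against 274 ± 2.27 CPM, adjusted p 0.00387 by edgeR), and with the replicate block 5 of 5 were (4.46% of all genes). Leukocyte and macrophage markers summed to 426 to 846 CPM in control and 477 to 898 CPM with DKK1, 5 of 10 were higher on average, and Cd14 alone was called. Lyz2 supplied 340 to 722 CPM of these sums, which were highest in replicate 3 of each group. Marco had 6.38 ± 3.64 CPM in control and 20.1 ± 8.01 CPM with DKK1 (1.65 on the log2 scale, SE 0.38), Itgam 14.9 ± 4.94 and 31.5 ± 10.2 CPM (1.07, SE 0.26), and C1qb 12.99 ± 5.67 and 5.09 ± 3.95 CPM (-1.41, SE 0.49). These 3 had adjusted p-values of 0.116, 0.136 and 0.322 by edgeR, and differences close to or larger than those of the members. With the replicate block 7 of the 10 were called, Cd14, Itgam, Marco and Adgre1 higher and C1qa, C1qb and Csf1r lower, against the same shares of all genes. Neutrophil markers summed to 0.975 to 1.72 CPM in control and 2.68 to 4.03 CPM with DKK1, with Ly6g and Retnlg at 0 in every library. Of these S100a8 made up nearly all (1.16 ± 0.462 against 3.27 ± 0.737 CPM), with an adjusted p of 0.0705 by edgeR, 0.000309 with the block and 0.00127 by DESeq2, while S100a9 had at most 2 counts and Csf3r at most 4. The part of smooth muscle cells, macrophages and neutrophils in the members' values was not tested.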

How the data were processed

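RNA sequencing of 3 control and 3 DKK1 samples was analysed from 1 deposited table of expected counts per gene, estimated with RSEM after STAR alignment, per the submitters' processing notes. These name the builds GRCm38 and mm10 and edgeR 4.2.1. Versions of the other tools, read length and strand are not given in the sources used here. From 9.62% to 10.6% of the deposited values per library were not whole. Column totals ran from 22565917 to 34727102, so 3 counts are 0.0864 to 0.133 CPM. Symbols were found for 45143 of 45706 identifiers (98.8%). Gene types, positions and transcripts came from GENCODE M21 (GRCm38), which held 98.7% of the table's transcripts.

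Expected counts were rounded and tested with edgeR 4.0.16 in R 4.3.3 (TMM factors, filterByExpr with a minimum of 10, quasi-likelihood test, two-sided, Benjamini-Hochberg over 14635 genes, called under 0.05). CPM used the column totals. Standard errors (SE) were approximated from the test statistic. DESeq2 1.42.0, limma 3.58.1 (voom), other scalings and filters, unrounded counts, a replicate block, leaving out each sample and, added after seeing the data, leaving out both replicate 3 samples and sums of genes that share sequence were the alternatives. The replicate numbers come from the labels. Same-numbered samples deviated together from their group means (r = 0.274, 0.230 and 0.405), so the numbers were taken to pair the samples, and blocked values stand beside a result where they change a call. Transcripts were aligned with BLAST 2.17.0 (megablast, e-value 1e-10). The scripts were tested on simulated data.

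The members and the gene lists were chosen with earlier results of these data known. Named genes are the members, the 4 lincRNAs ranked first by p among the rising, the nearest gene on each side of a member and any called gene within 500 kb, the 5 genes most like each member by each measure, and of each list the called genes up to 8 by smallest p with the 3 most abundant not called. Slc6a9, B4galt2, Cttnbp2, Artn and the markers were named after their values were seen.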

Additional observations from a re-analysis of the deposited data

How the results depend on the processing

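Leaving out each sample in turn gave log2 fold changes of 1.06 to 1.19 for Gm12840 and 0.956 to 1.10 for Gm26809. Adding up genes that share sequence, an alternative added after seeing the data, gave 0.765 for all 3 genes in place of either member and 0.712 for Gm26809 with Gm20186. Over all genes DESeq2 called 289, the fit with no low-count filter 329, the replicate block 1379, and the fits without 1 sample 36 to 139, so which samples enter limits the counts. The count was 44 without DKK1 replicate 1, 57 without DKK1 replicate 2, 51 without control replicate 1 and 36 without control replicate 2. Of lincRNAs 9 were called with no low-count filter, 16 with the block and 2 to 4 without 1 sample. Of the neighbours 1 was called by DESeq2 and 1 with no low-count filter, 3 with the block, and 0 to 1 without 1 sample (1 without DKK1 replicate 3), while windows of 100 and 1000 kb gave 0 of 4 and 0 of 40. Of the named long noncoding RNAs 5 were called with the block and 0 to 1 without 1 sample, of the inflammation-responsive ones 4 and 0 to 1, both with 0 without DKK1 replicate 1. Of the inflammatory genes 23 were called with the block and 6 to 14 without 1 sample, the fewest without control replicate 2. The genes most like the members shared 0 names between the 2 measures. The cause of these changes was not tested. With both replicate 3 libraries left out 149 genes were called, 83 of them among the 131. Other settings kept each count within 1.5 times its value and each direction. The planned promoter motif search was not run, since no promoter sequence of either member was used here. The division of reads at the chromosome 6 locus also limits the values of Gm26809, since the read length and strand setting are unknown.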

Other observations

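By annotated gene type, calls at an adjusted p under 0.05 (edgeR's quasi-likelihood test) were found for 126 of 13400 protein-coding genes (0.94%), 100 of them higher, and with the replicate block for 1334, of which 709 were higher and 625 lower. Over all tested genes 10.6% had an unadjusted p under 0.05, 9.42% were called with the block and 2.04% by DESeq2. Of 250 antisense RNAs 0 were called, with 20 at an unadjusted p under 0.05, 6 called with the replicate block and 0 by DESeq2. Of 169 processed transcripts 1 was called, lower (0.592%, against 0.895% of all genes), with 10 at an unadjusted p under 0.05, 5 called with the block, all lower, and 1 by DESeq2. Of 272 processed pseudogenes 0 were called, with 25 at an unadjusted p under 0.05, 4 with the block and 1 by DESeq2. The median log2 fold change was -0.03 over the antisense RNAs and 0.07 over the processed pseudogenes, where the lincRNAs other than the members had -0.10. Every DKK1 library was above every control for 9 of those 215 lincRNAs and below for 28, where 9.4% and 7.14% of all tested genes were so.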
